A study of Mus musculus and Homo sapiens with 23 samples.

Results

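The tripartite motif (TRIM) genes were followed in BV2 cells, a mouse microglial line immortalised with oncogenes, in 1 RNA library of unstimulated cells and 1 library of cells stimulated with lipopolysaccharide (LPS). The members were all genes whose deposited RefSeq transcripts map to a mouse symbol made of Trim and a number, with the FPKM (fragments scaled to the length of the transcript and the size of the library) of the transcripts of a symbol added up. There were 65 such genes of 21593 genes in the tables, and 30 of them had at least 1 FPKM in either. The stimulation lasted 3 h by the treatment protocol, which does not name the samples it was applied to. The sources used here give no dose of LPS, no culture medium of BV2 and no genetic change in these cells. The study asked how histone acetylation marks active regulatory elements, and its other 21 samples, all chromatin immunoprecipitation or input samples of BV2 and other cells, were not analysed here.

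TRIM proteins share an N-terminal stretch with a RING finger, 1 or more B-boxes and a coiled coil, and differ in what follows it. The RING finger makes most of them E3 ubiquitin ligases, the coiled coil lets them pair, and the C-terminal domain selects the target. Several are known as interferon-inducible antiviral factors or as regulators of the sensors of foreign nucleic acids, others as regulators of NF-kB, and others act on chromatin, on microtubules or in muscle. LPS is an outer membrane component of Gram-negative bacteria that is recognised by TLR4, whose adaptors MyD88 and TRIF lead to NF-kB and to interferon-beta, and microglia are the resident macrophages of the brain in which this response is much studied.

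Each group held 1 library. There were no replicates and hence no test or p-value, and a difference between the libraries is not a tested difference between the conditions. The intervals printed are the 95% intervals deposited with the values, which cover counting and the assignment of fragments within a library only. Changes are differences in log2(FPKM + 1), LPS minus unstimulated, and a gene was called higher or lower where the change was at least 1 in size, a fold of 2 on that scale. Because adding 1 makes changes at low FPKM look smaller, the plain ratio of the FPKM values is printed as well. In bulk RNA, fewer cells of a type and less RNA per cell cannot be told apart.

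The implied number of fragments, read from the width of the deposited intervals, was 13790000 for the unstimulated library and 16910000 for the LPS library. Tnf was at 11.5 FPKM before and 735 FPKM after LPS, and Il1b at 1.18 and 841 FPKM. Of 12 microglia and macrophage markers with a value, 11 reached 1 FPKM, with a summed level of 9638 FPKM unstimulated and 7335 FPKM after LPS; among the markers of resting microglia, Cx3cr1 was at 0.142 and 0.0615 FPKM, P2ry12 at 1.19 and 0.223 and Tmem119 at 2.16 and 0.601 FPKM, and only Spi1 was called (217 and 707 FPKM). No marker of neurons, astrocytes, oligodendrocytes, endothelium with fibroblasts, or lymphocytes reached 1 FPKM in either library, the highest being Mbp at 0.457 and 0.394 FPKM.

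The sequences before the starts of the TRIM genes were searched for 3 short motifs, GAAANNGAA (the paired core of an interferon-stimulated response element), TTCNNNGAA (a STAT site) and GGGANTTCC (an NF-kB site), on both strands, in the 250 bases before each start in a RefSeq table of build GRCm38.p6. The motifs were chosen with the changes described below already known. The table held a window for 49 of the 65 members, among them 8 of the 10 called higher and 3 of the 5 called lower after LPS. GAAANNGAA stood in the windows of 4 of those 8 genes, of 0 of 3 called lower, of 0 of 9 within the limits and of 2 of 29 below 1 FPKM (Trim7 and Trim30d). Over all genes of the table, 8.18% of 27025 held it in any of their windows (7.13% of 32851 single windows), and among all genes called higher by the same rule 16.5% of 678 held it. Of the 4, Trim12c and Trim30a reached 1 FPKM only in the LPS library. Both belong to a cluster of related genes on chromosome 7 and are not independent cases. The windows of the 4 genes are shown because their motif copies differ in number and distance from the start; each reads 5′ to 3′ on the strand of the gene, capitals mark the motif, here in its reverse complement, and the last base printed is the one before the start.
Trim25 (chr11:88999153-88999402, plus strand): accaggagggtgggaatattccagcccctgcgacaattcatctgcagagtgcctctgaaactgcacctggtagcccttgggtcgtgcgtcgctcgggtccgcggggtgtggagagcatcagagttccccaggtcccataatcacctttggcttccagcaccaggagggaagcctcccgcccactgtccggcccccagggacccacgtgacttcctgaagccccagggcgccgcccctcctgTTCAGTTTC
Trim26 (chr17:36836896-36837145, plus strand): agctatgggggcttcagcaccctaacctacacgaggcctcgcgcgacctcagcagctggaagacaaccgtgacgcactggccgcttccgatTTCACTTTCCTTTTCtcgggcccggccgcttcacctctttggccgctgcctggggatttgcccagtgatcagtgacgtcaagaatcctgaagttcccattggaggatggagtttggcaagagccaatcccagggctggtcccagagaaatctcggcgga
Trim12c (chr7:104353350-104353599, minus strand): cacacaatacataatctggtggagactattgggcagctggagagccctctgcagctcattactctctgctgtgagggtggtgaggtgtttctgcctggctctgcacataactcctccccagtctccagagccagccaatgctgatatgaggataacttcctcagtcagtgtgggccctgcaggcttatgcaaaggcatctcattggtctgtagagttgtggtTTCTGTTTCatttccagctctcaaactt
Trim30a (chr7:104465194-104465443, minus strand): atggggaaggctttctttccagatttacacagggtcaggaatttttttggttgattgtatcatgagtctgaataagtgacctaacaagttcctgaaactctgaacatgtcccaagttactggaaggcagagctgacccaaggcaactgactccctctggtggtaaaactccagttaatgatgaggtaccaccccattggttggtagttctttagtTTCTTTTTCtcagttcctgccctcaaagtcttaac
In Trim25 the motif ended at the last base before the start, in Trim12c it lay 28 to 20 bases and in Trim30a 35 to 27 bases before it, and in Trim26 a pair of overlapping copies spanned 159 to 145 bases before it. Trim30a had a further window without a copy before the start, at chr7:104446126-104446375.

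The same search in the full 300-base windows, which add 50 bases past the start and were examined after the data had been seen, found GAAANNGAA in 6 of the 8 genes called higher, 0 of 3 called lower, 0 of 9 within the limits and 4 of 29 below 1 FPKM (Trim7, Trim30d, Trim34a and Trim2), beside 9.76% of all genes with a window and 18.9% of all genes called higher. Of these 6, Trim12a, Trim12c and Trim30a belong to the chromosome 7 cluster and reached 1 FPKM only in the LPS library. Trim30a held a further copy at bases 4 to 12 after a start, and which of its windows held this copy was not recorded. The added genes among those called higher were Trim12a, with bases 12 to 20 after the start, and Trim21, with overlapping copies at bases 14 to 22 and 20 to 28. These 2 sites are shown with their flanks because Trim12a carries the same letters as its neighbour Trim12c on the other side of the annotated start, and Trim21 carries 2 copies; capitals mark the motif, reverse in Trim12a and forward in Trim21.
Trim12a (chr7:104315466-104315494, minus strand): gagttgtggtTTCTGTTTCatttccagag
Trim21 (chr7:102565448-102565476, minus strand): ctgagagGAAACTGAAAGTGAAatttgga
Compared without gaps at an offset of 40 bases, the full windows of Trim12a and Trim12c were identical at 188 of 260 bases (72.3%). The windows differ in length at a point before the start, which puts the bases after it out of register. The shared motif letters are therefore not paired at this offset, and the share understates the likeness of the windows. TTCNNNGAA was in the shorter window of 0 of 8 genes called higher and of 8.13% of all genes, and GGGANTTCC in 0 of 8 and 1.63%, so neither overlapped the copies shown. At shares this low over all genes, 0 of 8 does not show that either kind of site is missing. A match describes letters and not a bound site.

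Of the 30 TRIM genes at 1 FPKM or more, 10 were called higher and 5 lower after LPS (33.3% and 16.7%), beside 8.54% higher and 12.4% lower among all 10034 genes at that level. The lower count depended on the scaling: it was 8 with TPM, 2 with median scaling and 3 with quantile normalisation, and over all genes 2198 with TPM and 788 with median scaling, beside 1248. A gene that reaches 1 FPKM only after LPS has to be higher there, and 4 of the 10 were in that position (Trim12a, Trim12c, Trim30a and Trim36); Trim29, Trim45 and Trim65 reached it only in the unstimulated library. Among genes at 1 FPKM or more in both libraries, 6 of 23 TRIM genes were higher and 5 lower (26.1% and 21.7%), beside 7.41% and 10.6% of all 8731 such genes. Without any filter, 15.4% of the 65 TRIM genes were higher and 7.69% lower, beside 3.97% and 5.78% of all genes. None of these shares was tested. The deposited intervals of the libraries were separate for 11 TRIM genes with LPS above and 15 with LPS below (36.7% and 50.0%), beside 25.1% and 48.5% of all counted genes, and they overlapped for Trim3, Trim35, Trim45 and Trim47.

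The median change of the 30 genes was −0.22, beside −0.24 for all counted genes. With the libraries scaled so that all counted genes had a median of 0, the TRIM value was 0.10. That value is over the 31 TRIM genes at 1 FPKM or more after scaling and not over the same 30, so it is no like-for-like shift. The summed level of the 65 genes was 205 FPKM unstimulated and 296 FPKM after LPS; the 10 genes called higher made up 34.9 and 173 FPKM of it, and the 5 called lower 38.4 and 11.96 FPKM. The sum over all 21593 genes was also larger after LPS, at 553567 FPKM unstimulated and 656058 FPKM after LPS. The number of TRIM genes at 10 FPKM or more was 5 before and 10 after LPS. The most abundant member was Trim28 in unstimulated cells (37.6 FPKM) and Trim25 after LPS (45.5 FPKM).

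**Figure D1:**
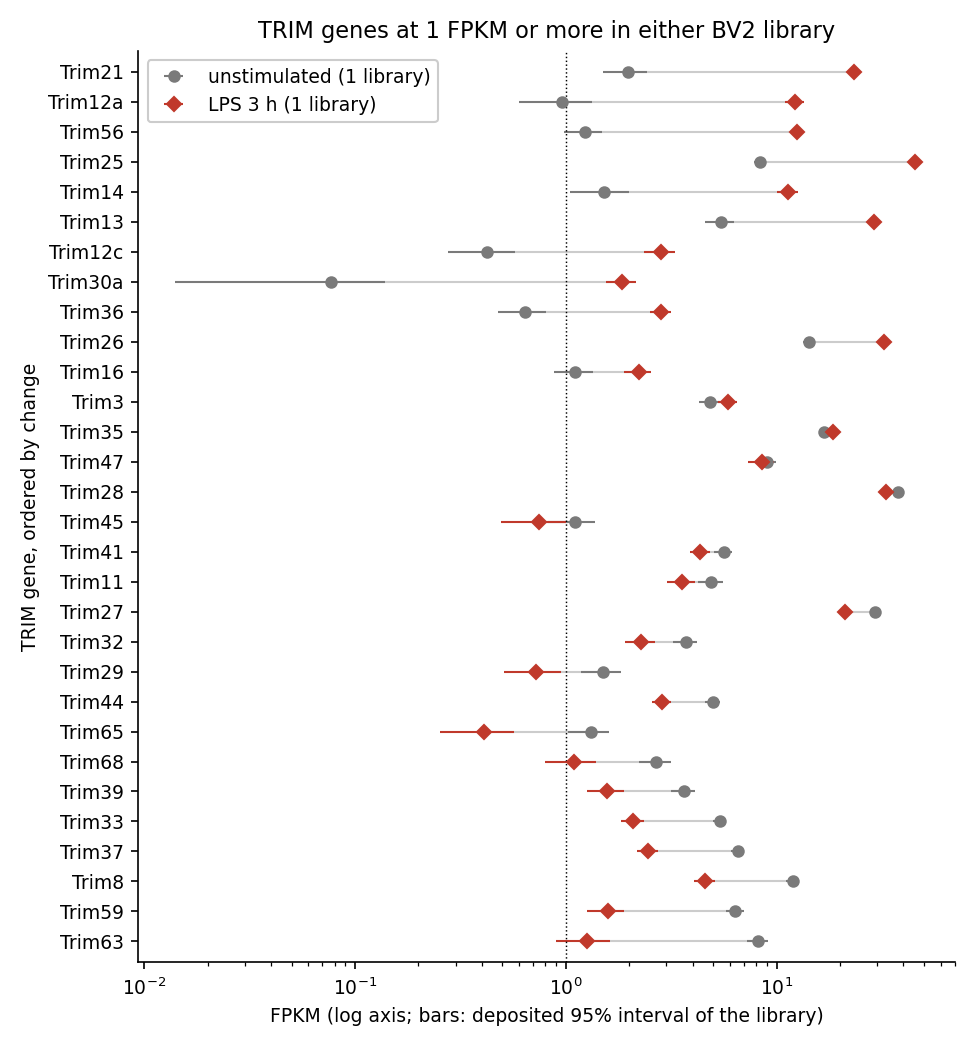
FPKM of each of the 30 TRIM genes at 1 FPKM or more in either library, on a log axis, in the unstimulated (grey circles) and LPS (red diamonds) library, with the deposited 95% interval as bars; the dotted line stands at 1 FPKM. Genes are ordered by change: the 10 at the top lie further right after LPS, from Trim21 (1.96 and 23.2 FPKM) to Trim26 (14.3 and 32.2 FPKM), and the 5 at the bottom lie further left.

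**Figure D2:**
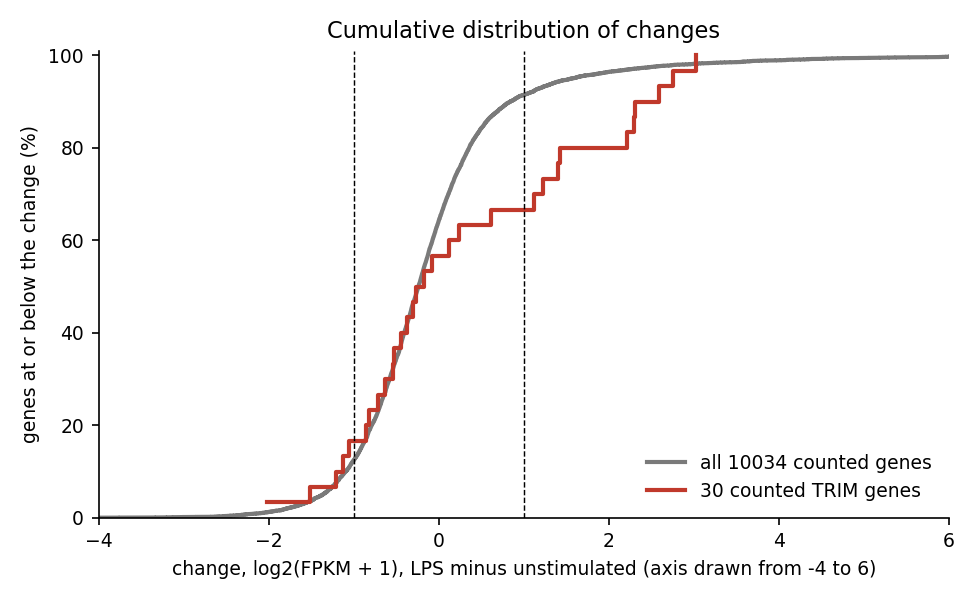
Cumulative share (%) of genes at or below each change of log2(FPKM + 1), LPS minus unstimulated, for all 10034 counted genes (grey) and the 30 counted TRIM genes (red steps); dashed lines stand at changes of −1 and 1. The curves run together below 0 and the TRIM curve lies below the other between 0 and 3, with 33.3% of TRIM genes and 8.54% of all genes past 1.

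Among the roles listed, which were chosen with earlier results of these data known, nucleic acid sensing and interferon signalling held the largest number of calls. Of 8 measured genes, 5 were higher (Trim14, Trim21, Trim25, Trim26 and Trim56) and 0 lower, Trim32 and Trim65 stayed within the limits, and Trim31 was listed at 0 in both libraries. All 5 were at 1 FPKM or more in both libraries. The median change of the 7 counted genes was 2.29, beside −0.24 for all counted genes, of which 8.54% were higher and 12.4% lower. By share, the group of TRIM5 relatives described below stood higher, with 3 of 3 counted genes called higher, all 3 counted only through the LPS library. Trim23, which is listed under nucleic acid sensing and interferon signalling, had no matching transcript.

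Trim21, a cytosolic receptor for antibody Fc parts that marks antibody-coated virus for degradation, was at 1.96 FPKM (interval 1.50 to 2.43) unstimulated and at 23.2 FPKM (21.7 to 24.7) after LPS. The intervals lay far apart, the ratio was 11.8 (9.22 to 15.1), and the change of 3.03, the largest of a TRIM gene on that scale, ranked 181 from the top among 10034 counted genes. The gene lies at chr7:109706436-109713983 of mm9, the build of the deposited coordinates.

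Trim25, the ligase known for ubiquitinating the RNA sensor RIG-I, rose from 8.34 FPKM (7.81 to 8.87) to 45.5 FPKM (44.3 to 46.7), a ratio of 5.45 (5.09 to 5.84) and a change of 2.32. It lies at chr11:88860717-88881607 and rested on 982 and 5624 implied fragments, the most of any member after LPS. It is the gene whose printed window ends in the interferon motif.

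Trim56, which ubiquitinates proteins of the cGAS to STING pathway, stood at 1.23 FPKM (0.977 to 1.49) and 12.5 FPKM (11.7 to 13.3), a ratio of 10.1 (8.16 to 12.6) and a change of 2.60 (chr5:137587156-137592077). Trim14, a member without a RING finger that acts as an adaptor at MAVS on mitochondria, stood at 1.52 FPKM (1.05 to 1.99) and 11.4 FPKM (10.1 to 12.6), a ratio of 7.48 (5.37 to 10.4) and a change of 2.29 (chr4:46519719-46549016). Both were low in unstimulated cells and above 10 FPKM after LPS.

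Trim26, a ligase reported to act on nuclear IRF3, was already at 14.3 FPKM (13.3 to 15.2) unstimulated and reached 32.2 FPKM (30.8 to 33.6). Its ratio of 2.26 (2.09 to 2.44) was the smallest among the genes called higher, with a change of 1.12, and it missed the limit after conversion to TPM (0.94) and with a pseudocount of 5 (0.95). It lies at chr17:36974086-36996325, 1 kb from Trim15, in a row of TRIM genes with Trim10, Trim40 and Trim31, and all 4 of these neighbours were listed at 0 in both libraries.

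Trim65, the ligase of the RNA sensor MDA5, stood at 1.31 FPKM (1.02 to 1.60) and 0.411 FPKM (0.253 to 0.569), a change of −0.71 within the limits, and it passed the limit downward with a pseudocount of 0.1 (−1.47) and after conversion to TPM (−1.01). Trim32, a ligase with an NHL domain that acts on STING and is mutated in a limb-girdle muscular dystrophy, stood at 3.70 FPKM (3.21 to 4.19) and 2.28 FPKM (1.91 to 2.64), a change of −0.52. Both had LPS values below the unstimulated ones with separate intervals, while the other 5 counted members of the group were higher. Trim32 lies within the locus of Astn2, which was at 0 and 0.00937 FPKM.

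The genes in which these proteins act were described from a list of sensors, adaptors, kinases and interferon factors. All 24 with a value were counted. Of them 11 were higher, 0 lower and 13 within the limits, beside 8.54% higher and 12.4% lower of all counted genes. The median change was 0.85, beside −0.24 for all counted genes. In unstimulated cells 5 of the 24 were below 1 FPKM (Ddx58, Ifih1, Dhx58, Ifnb1 and Nod2). The filter admitted these 5 through the LPS library, and all 5 are among the 11. Without any filter, 3.97% of all genes were higher and 5.78% lower. Isg15, the ubiquitin-like protein, was at 1.98 and 952 FPKM, and Irf7, an interferon transcription factor, at 4.68 and 338 FPKM. The RNA sensors Ddx58 (RIG-I), Ifih1 (MDA5) and Dhx58 (LGP2) were at 0.279 and 21.3, 0.282 and 19.1, and 0.866 and 41.8 FPKM. Ifnb1, interferon-beta itself, was listed at 0 in unstimulated cells and at 16.2 FPKM after LPS. The kinase Ikbke was at 9.37 and 149 FPKM and the sensor Nod2 at 0.319 and 13.2 FPKM.

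Ddx58 and Ifih1, the RNA sensors on which Trim25 and Trim65 act, were both called higher, as was Trim25, while Trim65 was not. Mavs, the adaptor with which Trim14 acts, stood at 12.7 and 7.20 FPKM, a change of −0.74 within the limits. Cgas and Sting1, partners of Trim56, stood at 7.85 and 8.01 FPKM and at 7.92 and 8.22 FPKM, changes of 0.03 and 0.05 that turned to −0.17 and −0.15 after conversion to TPM.

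Of the TRIM genes assigned to the control of NF-kB, TLR and TRIF signalling, 8 were measured and 6 counted, of which 2 were higher (Trim13 and Trim30a), 2 lower (Trim8 and Trim59) and 2 within the limits, with a median change of −0.65. Over all counted genes 8.54% were higher and 12.4% lower, with a median change of −0.24. The median rests on 6 genes and was not tested, and Trim30a was counted only through the LPS library. Trim13, a ligase anchored in the membrane of the endoplasmic reticulum and active in protein quality control there, rose from 5.44 FPKM (4.59 to 6.29) to 28.9 FPKM (26.9 to 30.9), a ratio of 5.31 (4.48 to 6.30) and a change of 2.21. Its locus, chr14:62217063-62224782, shares 3110 bases with Dleu2, which was at 1.99 and 1.25 FPKM; the sources used here do not say whether counting used the strand, so reads in the shared bases cannot be assigned with certainty.

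Trim30a, known for directing the NF-kB adaptors TAB2 and TAB3 to degradation, stood at 0.0766 FPKM (0.0141 to 0.139), or 6 implied fragments, and at 1.85 FPKM (1.55 to 2.15) after LPS. The ratio was 24.1 with a wide interval of 10.5 to 55.5, and the change was 1.40. With a pseudocount of 5 the change was 0.43, and with 0.1 it was 3.46. Tab2 itself stood at 14.4 and 19.4 FPKM and Tab3 at 1.15 and 0.851 FPKM, both within the limits, and the sign for Tab3 turned under quantile normalisation (0.13).

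Trim8, which ubiquitinates the NF-kB kinase TAK1 and has been reported to restrain TRIF, fell from 11.9 FPKM (11.1 to 12.8) to 4.58 FPKM (4.07 to 5.09), a fold of 2.60 (2.28 to 2.97) and a change of −1.21 (chr19:46576138-46590945). Trim59, a membrane-anchored ligase reported to restrain innate signalling through ECSIT, fell from 6.39 FPKM (5.73 to 7.04) to 1.58 FPKM (1.26 to 1.90), a fold of 4.04 (3.23 to 5.07) and a change of −1.52 (chr3:68839216-68848664). Both had separate intervals; with a pseudocount of 5 both missed the limit (−0.82 and −0.79), and Trim8 also did after scaling the libraries to a median change of 0 (−0.97).

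Trim27, which ubiquitinates the WASH complex on endosomes, was among the most abundant members at 29.2 FPKM (27.6 to 30.8) and 21.1 FPKM (19.8 to 22.5), a change of −0.45. Trim39, which stabilises the cell death regulator MOAP-1, stood at 3.64 FPKM (3.16 to 4.12) and 1.57 FPKM (1.26 to 1.88), a change of −0.85 that passed the limit with a pseudocount of 0.1 (−1.16) and after conversion to TPM (−1.12). Trim38 stayed below 1 FPKM (0.225 and 0.0358 FPKM) and Trim40 was listed at 0.

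The mouse relatives of the primate restriction factor TRIM5, which binds incoming retroviral capsids, form a cluster of 8 TRIM genes over 317 kb at chr7:111367309-111683875 of mm9, with no other gene of the tables between them. Of the 7 measured genes of this group, 3 were higher (Trim12a, Trim12c and Trim30a) and 0 lower; all 3 were below 1 FPKM in unstimulated cells, so the filter admitted them through the LPS library. Without any filter, 3.97% of all genes were higher and 5.78% lower. Trim12a stood at 0.965 FPKM (0.600 to 1.33) and 12.2 FPKM (11.0 to 13.5), a ratio of 12.7 (8.57 to 18.8) and a change of 2.75, the largest after Trim21. Trim12c, 23 kb away, stood at 0.425 FPKM (0.277 to 0.576) and 2.83 FPKM (2.36 to 3.30), a ratio of 6.66 (4.50 to 9.84) and a change of 1.43, which became 0.53 with a pseudocount of 5.

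Trim34a, in the same cluster, missed the filter at 0.0383 FPKM (2 implied fragments) and 0.894 FPKM (49 fragments), a change of 0.87, and its full window held GAAANNGAA at bases 12 to 20 after the start. Trim30b and Trim30d were at 0 and 0.0507 FPKM and at 0.0148 and 0.0610 FPKM, and Trim6 and the pseudogene Trim30e-ps1 were listed at 0 in both libraries. Thus 4 neighbours had higher values after LPS with separate intervals and the other 4 lay at or near 0. The genes of this cluster are near-identical copies of each other in part, and the sources used here do not say how reads that fit several copies were divided, so the split among Trim12a, Trim12c, Trim34a and the Trim30 genes is uncertain. No transcript matched Trim5, Trim30c or Trim34b.

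**Figure D3:**
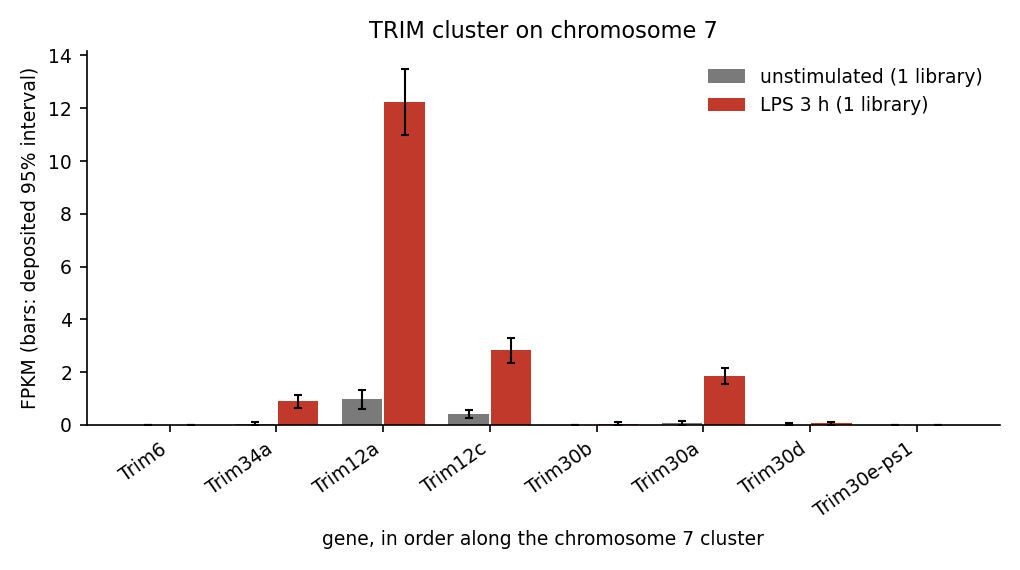
FPKM (bars from 0, with the deposited 95% interval) of the 8 TRIM genes of the chromosome 7 cluster, in their order along the chromosome, in the unstimulated (grey) and LPS (red) library. Trim12a reaches 12.2 FPKM after LPS, Trim12c 2.83, Trim30a 1.85 and Trim34a 0.894 FPKM, and the other 4 genes lie at or near 0.

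Pairs of neighbours outside the cluster are given as examples, chosen after their values were seen. Trim21 and Trim68, 112 kb apart on chromosome 7, stood at a change of 3.03 and of −0.82; Trim68, described as a coactivator of the androgen receptor, was at 2.69 FPKM (2.21 to 3.16) and 1.09 FPKM (0.797 to 1.39), and passed the limit downward with a pseudocount of 0.1 (−1.23) and after conversion to TPM (−1.10). Trim47 and Trim65 lie 14 kb apart on chromosome 11 and stood at changes of −0.08 and −0.71. Trim41 and Trim7, 9 kb apart on the same chromosome, stood at −0.31 and −0.12.

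By the domain that follows the coiled coil, the PRY-SPRY class, whose C-terminal domain binds the target protein, was the largest, with 36 measured and 16 counted genes. In it 7 were higher and 0 lower (Trim12a, Trim12c, Trim14, Trim21, Trim25, Trim26 and Trim30a), and 9 stayed within the limits; the median change was 0.37 over the counted and 0 over the measured genes, beside −0.24 and 0 for all genes. With TPM and with a pseudocount of 0.1, Trim39, Trim65 and Trim68 of this class were past the limit downward, and with TPM Trim26 was no longer past it upward. Of the 16, 3 were below 1 FPKM in unstimulated cells (Trim12a, Trim12c and Trim30a), and all 3 are among the 7 called higher. Over all counted genes 8.54% were higher and 12.4% lower, which also stands beside the counts of the classes that follow. The classes overlap with the roles described above and are no separate evidence. Genes were placed in classes by a list of symbols, and the domains of each mouse protein, such as that of Trim12a, were not checked.

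The 5 genes called lower as deposited came from 4 other classes; the 3 that joined them with TPM or a pseudocount of 0.1 were of the PRY-SPRY class. In the PHD-bromodomain class of chromatin regulators, 4 were measured and 2 counted. Trim33 (TIF1-gamma), a regulator of Smad4 and of transcription in macrophages, fell from 5.38 FPKM (5.02 to 5.75) to 2.08 FPKM (1.82 to 2.34), a fold of 2.59 (2.24 to 2.98) and a change of −1.05 (chr3:103083216-103162691). This change lay close to the limit and missed it with a pseudocount of 5 (−0.55), after scaling to a median change of 0 (−0.85) and under quantile normalisation (−0.74). Trim28 (KAP1), the corepressor of KRAB zinc finger proteins, was at 37.6 FPKM (36.1 to 39.1) and 33.2 FPKM (31.8 to 34.6), a change of −0.18 that turned to 0.10 after scaling to a median change of 0. Trim24 lay just below the filter at 0.939 and 0.520 FPKM, and Trim66 was at 0.00510 and 0 FPKM.

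In the class with a COS box, which binds microtubules, 8 genes were measured, and 1 was higher and 1 lower. Trim63 (MuRF1), a ligase best known for breaking down sarcomere proteins in wasting muscle, fell from 8.15 FPKM (7.21 to 9.09) to 1.26 FPKM (0.902 to 1.62). Its fold of 6.45 (4.74 to 8.78) was the largest among the genes called lower, and its change of −2.02 ranked 122 from the bottom among 10034 counted genes (chr4:133871035-133885544). The other TRIM genes of the muscle list, Trim54, Trim55 and Trim72, were listed at 0 in both libraries. Trim36, a microtubule-associated ligase, stood at 0.640 FPKM (0.475 to 0.805) and 2.84 FPKM (2.50 to 3.17), a ratio of 4.43 (3.33 to 5.89) and a change of 1.23, which became 0.47 with a pseudocount of 5. Trim46 was at 0.543 and 0.534 FPKM, Trim67 at 0.00529 and 0 FPKM, and Trim9 and Trim42 were listed at 0.

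Among the members with a C-terminal domain found in few TRIM proteins, 4 were measured and all were counted, with Trim13 higher and Trim37 and Trim59 lower. Trim37, a MATH-domain ligase that acts on peroxisomes and centrosomes and is mutated in Mulibrey nanism, fell from 6.56 FPKM (6.09 to 7.03) to 2.45 FPKM (2.17 to 2.73), a fold of 2.68 (2.34 to 3.06) and a change of −1.13 (chr11:86940579-87034184). It missed the limit with a pseudocount of 5 (−0.63), after scaling to a median change of 0 (−0.92) and under quantile normalisation (−0.84). Trim45, with a filamin-type domain, was at 1.10 FPKM (0.822 to 1.38) and 0.746 FPKM (0.491 to 1.00), with overlapping intervals.

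The NHL class, whose propeller domain binds RNA or protein, held 4 measured genes and 0 calls. Trim3, known from neurons, was at 4.85 FPKM (4.28 to 5.41) and 5.91 FPKM (5.30 to 6.52) with overlapping intervals. Trim2, its close relative, lay below the filter at 0.607 FPKM (0.466 to 0.748) and 0.125 FPKM (0.0625 to 0.187), with separate intervals and GAAANNGAA at bases 30 to 38 after its start, and Trim71, a stem cell factor, was listed at 0.

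Of the 7 measured members without a recognised C-terminal domain, Trim56 was higher and Trim8 lower. Trim44, a member without a RING finger, was at 4.97 FPKM (4.57 to 5.38) and 2.86 FPKM (2.56 to 3.16), a change of −0.63, and Trim29, also without a RING finger, was at 1.51 FPKM (1.18 to 1.83) and 0.726 FPKM (0.507 to 0.945), a change of −0.54. Trim31, Trim40 and Trim52 were listed at 0 in both libraries.

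The remaining counted genes, all of the PRY-SPRY class, stayed within the limits. Trim35, reported to bind pyruvate kinase M2, was at 16.8 FPKM (15.9 to 17.8) and 18.5 FPKM (17.5 to 19.4) with overlapping intervals, and its change of 0.13 turned to −0.07 after conversion to TPM. It shares 105 bases with 1700001G11Rik, which was at 0.483 and 0.0767 FPKM. Trim41 was at 5.62 and 4.35 FPKM and Trim11 at 4.89 and 3.56 FPKM, changes of −0.31 and −0.37 with separate intervals. Trim16, a member without a RING finger that takes part in the removal of damaged lysosomes, was at 1.11 FPKM (0.876 to 1.34) and 2.22 FPKM (1.90 to 2.54), a ratio of 2.00 (1.55 to 2.58), and its change of 0.61 on the scale with the pseudocount stayed within the limit.

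Over the 15 counted genes within the limits, 12 had a change below 0 and 3 above 0. The median change of all counted genes was also below 0, at −0.24, so changes below 0 are not particular to the TRIM genes. Scaling matters for such values: the median change of the same counted genes moved by −0.20 with TPM, by 0.24 with median scaling and by 0.11 with quantile normalisation. The share of called genes that were higher moved with it. It was 66.7% of called TRIM genes and 40.7% of all called genes as deposited, 55.6% and 26.1% with TPM, 84.6% and 59.3% with median scaling, and 78.6% and 53.3% with quantile normalisation.

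**Figure D4:**
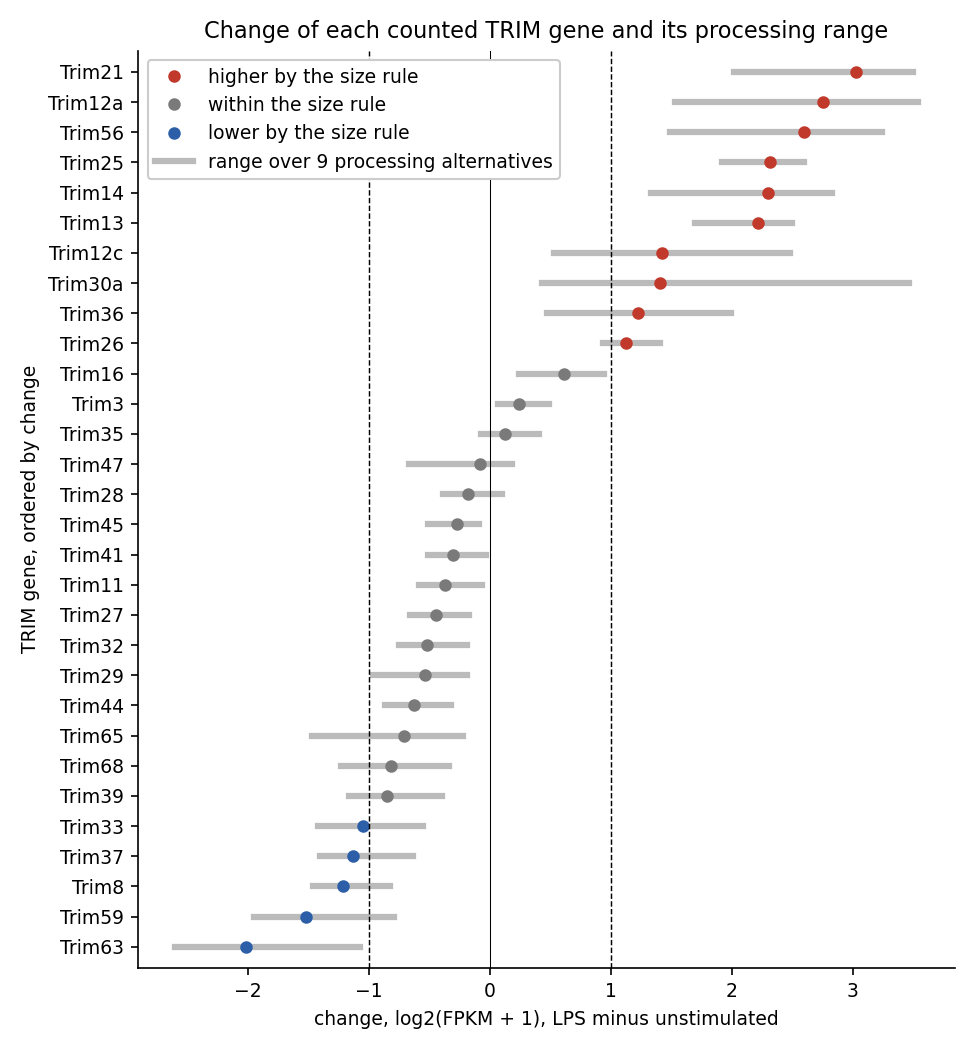
Change of log2(FPKM + 1), LPS minus unstimulated, of each counted TRIM gene (points, coloured by call; dashed lines at −1 and 1), with the range over up to 9 processing alternatives as grey bars. The bars of Trim21, Trim12a, Trim56, Trim25, Trim14, Trim13 and Trim63 stay past the limit, those of the other 8 called genes cross it, and the bars of Trim35, Trim47 and Trim28 cross 0.

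A pseudocount of 5 gave the smallest change of every called gene but Trim26: 2.02 for Trim21, 1.53 for Trim12a, 1.49 for Trim56, 1.33 for Trim14 and −1.07 for Trim63, all past the limit.

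Of the 65 members, 16 had more than 1 RefSeq transcript, with an FPKM deposited for each; the division of reads among overlapping transcripts is an estimate, and the 5 genes described here were chosen after their values were seen. In Trim21 both transcripts rose, NM_001082552 from 1.30 FPKM (0.921 to 1.68) to 18.7 FPKM (17.4 to 19.99) and NM_009277 from 0.666 FPKM (0.387 to 0.945) to 4.47 FPKM (3.74 to 5.21). In Trim13, NM_023233 stood at 5.44 and 27.4 FPKM and carried 94.8% of the gene's FPKM after LPS, and NM_001164220 was at 1.78e-05 and 1.50 FPKM. In Trim12c, NM_001146007 was at 0.425 and 1.85 FPKM and NM_175677 at 1.63e-05 and 0.977 FPKM.

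In Trim33 the values of the transcripts went in opposite directions, with a change of −1.42 in the more abundant and of 0.41, within the limit, in the other. NM_053170 was at 5.01 FPKM (4.66 to 5.35) and 1.25 FPKM (1.05 to 1.45), while NM_001079830 was at 0.377 FPKM (0.253 to 0.501) and 0.832 FPKM (0.668 to 0.995), so the share of the latter in the gene's FPKM was 7.00% and 40.0%. The intervals of each transcript were separate between the libraries, and the summed value of the gene understates the difference in NM_053170. The same was seen in Trim47, a gene whose sum stayed within the limits at 9.04 FPKM (8.13 to 9.96) and 8.50 FPKM (7.32 to 9.68). Its transcript NM_172570 was at 9.03 FPKM (8.12 to 9.94) and 5.32 FPKM (4.52 to 6.11), and NM_001205081 at 0.0101 and 3.18 FPKM (2.31 to 4.05), 0.112% and 37.4% of the gene. The change of the Trim47 sum, −0.08, turned to 0.18 after scaling to a median change of 0 and to 0.08 under quantile normalisation.

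**Figure D5:**
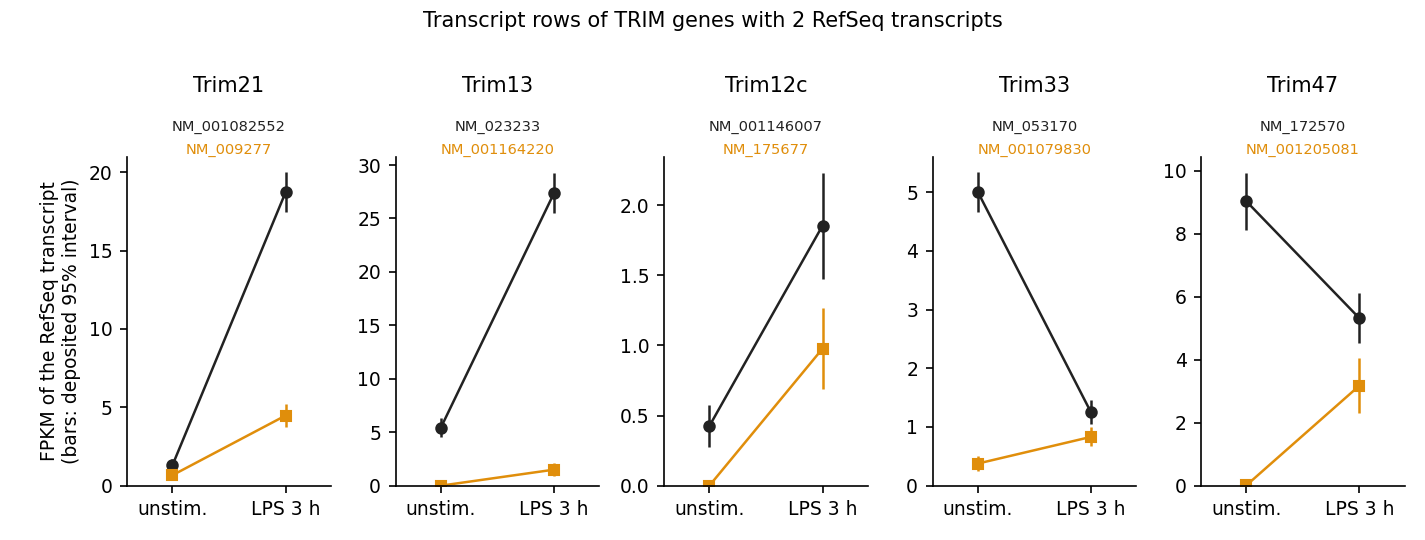
FPKM of each RefSeq transcript (black circles and orange squares, with the deposited 95% interval) of 5 TRIM genes in the unstimulated and LPS library, 1 panel per gene with its own axis from 0. Both transcripts lie higher after LPS in Trim21, Trim13 and Trim12c, whereas in Trim33 and Trim47 the black transcript lies lower and the orange one higher.

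The other 35 members stayed below 1 FPKM in both libraries, and 19 of them were listed at 0 in both. Nearest to the filter from below were Trim24, Trim7 (0.901 and 0.746 FPKM) and Trim34a, and nearest from above, by the higher of their values, Trim45 (1.10 FPKM), Trim65 (1.31 FPKM) and Trim29 (1.51 FPKM). The members not yet named were Trim17 (0.123 and 0.0294 FPKM), Trim43a (0 and 0.0266 FPKM), Trim43b (0.111 and 0.126 FPKM), Trim62 (0.167 and 0.145 FPKM), Trim69 (0.176 and 0.0837 FPKM) and Trim75 (0.0198 and 0 FPKM), each below 0.2 FPKM. Trim43c, Trim50, Trim58, Trim60, Trim61 and Trim80 were listed at 0 in both libraries. Trim60 and Trim61 overlap over 5713 bases, and the Trim43 genes are close copies, so their values are uncertain.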

How the data were processed

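RNA of 2 BV2 libraries was analysed. Per the labels, total RNA was extracted with Trizol, a strand-specific kit was used and reads had 76 bases. The authors deposited FPKM values with a 95% interval and a status for each RefSeq transcript; per the submitters' processing notes they used Cufflinks and build mm9. The sources used here name no aligner and no version. Of 28246 transcripts per table, 97.6% matched a symbol in a RefSeq table of GRCm38.p6, used for names and promoter sequences. Transcripts with a status other than OK in either library (391) and small RNA genes (711) were left out, and FPKM values of a symbol were summed, with half-widths combined in quadrature. Positions are mm9, 1-based, except promoters. Genes at 1 FPKM or more in either library were counted. Ratio intervals combine both deposited intervals, and ratios are given only above 3 implied fragments per library, taken as (2 × FPKM / half-width) squared. Every counted member is named, those past the limit with intervals and ratio, and at most 8 called pathway genes, largest change first; other pathway genes are named as partners of a member and were chosen after their values were seen. Members, lists and motifs were chosen with earlier results of these data known. Alternatives were other pseudocounts, filters, scalings (TPM, median scaling, quantile normalisation) and ways of combining transcripts. Scripts (Python 3.11.15, pandas 2.3.3, numpy 2.4.6) were tested on simulated data.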

Additional observations from a re-analysis of the deposited data

How the results depend on the processing

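No paired analysis was possible because each group held 1 library, and for the same reason no library could be left out. The count of TRIM genes at the filter was 18 at 5 FPKM and 65 without a filter. TRIM genes called higher numbered 6 with a pseudocount of 5 and stayed within 1.5 times of 10 under the other alternatives. TRIM genes called lower numbered 8 with a pseudocount of 0.1 and with TPM, 1 with a pseudocount of 5, 2 with median scaling and 3 with quantile normalisation. All genes called lower numbered 2061 (pseudocount 0.1), 354 (pseudocount 5), 2198 (TPM) and 788 (median scaling). The median change of counted TRIM genes turned to 0.0229 at a filter of 5 FPKM, 0.1049 with median scaling (31 genes counted) and 0.0238 with quantile normalisation. Signs also turned, at changes near 0, for Trim35 (−0.0741), Cgas (−0.17) and Sting1 (−0.15) with TPM, for Trim28 (0.10), Trim47 (0.18), Traf6 (0.0501) and Traf3 (0.12) with median scaling, and for Trim47 (0.0771), Tab3 (0.13), Map3k7 (0.10), Traf6 (0.11) and Traf3 (0.23) with quantile normalisation. A larger pseudocount shrinks and a smaller one enlarges changes at low FPKM, and a filter alters the genes counted. Median scaling multiplied every LPS value by 1.2221, which raises changes by construction. TPM rescaled each library to a common sum, so values also moved against the fixed pseudocount and filter. Under quantile normalisation the cause was not tested. Of the 15 called TRIM genes, Trim21, Trim12a, Trim56, Trim25, Trim14, Trim13 and Trim63 stayed past the limit in all 9 alternatives. Depth limits the lowest values most: Trim30a rested on 6 implied fragments in the unstimulated library. Counts of pathway genes called higher ranged from 11 to 13 and called lower stayed at 0.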

Other observations

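TRIM proteins known under other symbols are not members by name. Of 5 such genes with a value, 2 were called higher, beside 3.97% of all genes without any filter. Pml, the scaffold of nuclear bodies, was at 1.06 FPKM (0.871 to 1.26) unstimulated and 9.67 FPKM (9.10 to 10.2) after LPS, a change of 2.37. Mid1, a microtubule-bound ligase of the COS box class, was at 3.33 FPKM (2.92 to 3.74) and 9.14 FPKM (8.48 to 9.81), a change of 1.23 that became 0.76 with a pseudocount of 5. Its relative Mid2 stayed below 1 FPKM at 0.598 and 0.258 FPKM, Mefv, the gene of pyrin, was listed at 0 in unstimulated cells and at 0.480 FPKM after LPS, and Cmya5 was listed at 0 in both libraries.

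In Trim7, a gene below 1 FPKM in both libraries, the window before the start held GAAANNGAA 115 to 107 bases before the start, so the motif letters also stood before a member whose values hardly differed (0.901 and 0.746 FPKM, overlapping intervals). Trim30d held it 40 to 32 bases before its start at 0.0148 and 0.0610 FPKM.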
